A study of Homo sapiens with 12 samples.

Results

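AKR1C1 and NNMT are genes of metabolic enzymes whose RNA level in cells given both inhibitors of this study lay above the level that the single inhibitors would give if their log2 changes added up. They were chosen by name for that departure from additivity (called the interaction below, on the log2 scale COMBO - SEL201 - OTX015 + UNTREATED), so their own values are given as a description with no test. These are 2 of the 8579 genes in the count table. AKR1C1 encodes a cytosolic aldo-keto reductase that uses NADPH to reduce ketosteroids, aldehydes and quinones, and it is best known for inactivating progesterone. NNMT encodes nicotinamide N-methyltransferase, which moves a methyl group from S-adenosylmethionine to nicotinamide, and so draws on both the methionine cycle and the precursor pool of NAD. AKR1C genes are classic targets of NRF2, the transcription factor of the oxidative stress response, and NNMT is abundant in mesenchymal-like tumour cells.

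The RNA came from A375, an established human melanoma cell line with an activating BRAF mutation, after 72 hours of treatment. COMBO cells received SEL201 at 2.5 µM together with OTX015 at 50 nM, OTX015 cells and SEL201 cells received 1 agent at the same concentration, and UNTREATED cells carry the treatment label DMSO, the solvent. SEL201 blocks the MNK kinases, MNK1 and MNK2, whose substrate is eIF4E, the cap-binding protein of translation. OTX015 inhibits BET bromodomain proteins, readers of acetylated chromatin. Each group has 3 libraries, numbered 1 to 3. The series asks what joint MNK and BET inhibition changes in BRAF-mutated melanoma cells.

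Summed counts over the 8579 genes ran from 15146071 to 23247709 in COMBO, 18917153 to 21834086 in OTX015, 16382375 to 22626418 in SEL201 and 20346729 to 24111541 in UNTREATED. Levels are CPM, counts scaled to these sums with TMM factors. They are not per length, and so are compared within a gene and not between genes. Of 16 melanocyte lineage markers 12 were measured, with summed levels of 1116 to 1151 CPM in COMBO, 1116 to 1159 in OTX015, 1189 to 1210 in SEL201 and 1287 to 1345 in UNTREATED. In COMBO against UNTREATED edgeR called 3 of the 12 higher and 4 lower, near the shares of all genes, 28.3% higher and 29.6% lower. With library number as a replicate block 4 were higher and 4 lower, beside 33.5% and 34.2% of all genes. Without GPNMB, a melanosome gene named after its values were seen, the sums were 911 to 930 CPM in COMBO, 851 to 875 in OTX015, 889 to 904 in SEL201 and 875 to 887 in UNTREATED, with COMBO highest. The measured markers include MITF, PMEL and MLANA, while TYR, TYRP1, DCT and SOX10 were not analysed here. PMEL and MLANA rest on few counts, 61 to 164 and 76 to 152 per library.

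AKR1C1 was at 4.35, 5.69 and 4.90 CPM in COMBO libraries 1, 2 and 3, at 8.50, 6.39 and 6.66 CPM in OTX015, at 7.09, 6.41 and 8.17 CPM in SEL201, and at 23.5, 24.7 and 31.2 CPM in UNTREATED. UNTREATED stands far above the other groups, the ranges of OTX015 and SEL201 lie on top of each other, and all 3 COMBO libraries lie below both single-agent ranges. The group means were 4.98 ± 0.671 CPM in COMBO, 7.18 ± 1.15 in OTX015, 7.22 ± 0.889 in SEL201 and 26.5 ± 4.17 in UNTREATED (SD, n = 3 each). These levels rest on 74 to 123 counts per COMBO library and 547 to 629 per UNTREATED library. In a bulk sample, fewer cells that express a gene and less RNA per cell cannot be told apart.

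NNMT was at 16.2, 16.6 and 10.8 CPM in COMBO libraries 1, 2 and 3, at 20.7, 25.8 and 17.9 CPM in OTX015, at 64.5, 60.2 and 58.4 CPM in SEL201, and at 181, 202 and 175 CPM in UNTREATED. Here the 4 groups form a ladder without overlap, with COMBO lowest, OTX015 just above it, SEL201 well above both and UNTREATED on top. The means were 14.5 ± 3.24 CPM in COMBO, 21.5 ± 4.02 in OTX015, 61.0 ± 3.16 in SEL201 and 186 ± 14.3 in UNTREATED (SD, n = 3 each). Counts per library were 163 to 377 in COMBO and 3518 to 4862 in UNTREATED. Within each library number, COMBO was below OTX015 in all 3.

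**Figure D1:**
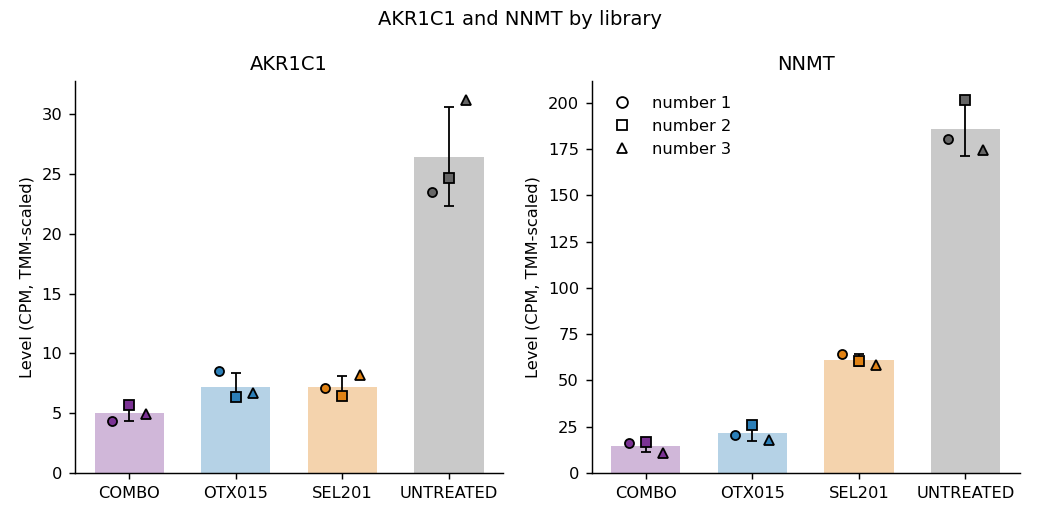
Levels of AKR1C1 (left) and NNMT (right) in CPM on linear axes, with groups along the x axis, bars at the mean of 3 libraries, error bars of 1 SD and a symbol per library number. For AKR1C1, OTX015 and SEL201 share 1 range (means 7.18 and 7.22 CPM), and for NNMT the OTX015 bar (21.5 CPM) is close to COMBO (14.5 CPM) and far below SEL201 (61.0 CPM).

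In the edgeR fit over all genes, AKR1C1 in COMBO was 5.31-fold below UNTREATED (log2 change -2.41, SE 0.16), in OTX015 3.69-fold below (-1.88, SE 0.16) and in SEL201 3.67-fold below (-1.88, SE 0.16). Against the single agents, AKR1C1 in COMBO was 1.44-fold below OTX015 (log2 change -0.53, SE 0.17) and 1.45-fold below SEL201 (-0.53, SE 0.17). The agents thus gave AKR1C1 almost the same change as each other. This was -1.88 for each alone and, smaller, -0.53 for each on top of the other. NNMT in COMBO was 12.6-fold below UNTREATED (log2 change -3.66, SE 0.15), in OTX015 8.63-fold below (-3.11, SE 0.14) and in SEL201 3.04-fold below (-1.60, SE 0.13). NNMT in COMBO was 1.46-fold below OTX015 (log2 change -0.55, SE 0.15) and 4.15-fold below SEL201 (-2.05, SE 0.15). For NNMT the agents are unequal, and most of the COMBO change is already present with OTX015 alone.

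As the background of these comparisons, edgeR called 29.6% of all genes lower in COMBO against UNTREATED at an adjusted p under 0.05, 24.7% lower in OTX015 against UNTREATED and 11.1% lower in SEL201 against UNTREATED. The shares called higher against UNTREATED were 28.3% in COMBO, 23.3% in OTX015 and 10.1% in SEL201. For COMBO against SEL201 the share called lower was 21.2%, and for COMBO against OTX015 it was 4.01%. The 3 and 3 libraries of a comparison did not overlap, with the agent-treated ones lower, in 32.1% of genes for COMBO against UNTREATED, 28.9% for OTX015 against UNTREATED, 18.8% for SEL201 against UNTREATED, 24.9% for COMBO against SEL201 and 12.8% for COMBO against OTX015. Ordered by log2 change against UNTREATED from the lowest of 8579 genes, AKR1C1 stood at place 75 in COMBO, 76 in OTX015 and 6 in SEL201, and NNMT at place 11 in COMBO, 10 in OTX015 and 24 in SEL201.

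The interaction of AKR1C1 was 1.35 on the log2 scale (SE 0.23), which means that its COMBO level was 2.55-fold above the additive expectation. Within the libraries of each number, the interaction was 0.76, 1.78 and 1.49 in numbers 1, 2 and 3 (SD 0.52). All 3 values are above 0, with number 1 well under the other two, where the OTX015 library had its highest level (8.50 CPM) and the COMBO library its lowest (4.35 CPM). From the group means, AKR1C1 was at 18.8% of UNTREATED in COMBO, 27.1% in OTX015 and 27.3% in SEL201, where the product of the single-agent ratios is 7.41%. The interaction of NNMT was 1.06 (SE 0.20), a COMBO level 2.08-fold above expectation. By number it was 1.14, 1.10 and 0.85 (SD 0.16), a tighter set than for AKR1C1. NNMT was at 7.83% of UNTREATED in COMBO, 11.6% in OTX015 and 32.9% in SEL201, against a product of 3.80%.

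**Figure D2:**
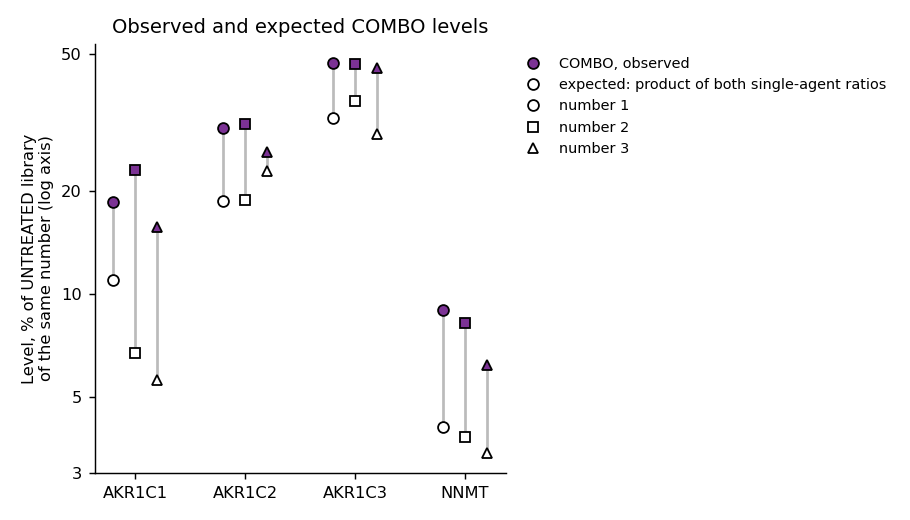
COMBO level as a percentage of the UNTREATED library of the same number, on a log axis, for AKR1C1, AKR1C2, AKR1C3 and NNMT, with filled symbols for the observed level and open symbols for the product of both single-agent ratios. Every filled symbol lies above its open one, by 1.70-fold to 3.43-fold for AKR1C1 and by 1.80-fold to 2.20-fold for NNMT. The ratio was 1.13-fold to 1.67-fold for AKR1C2 and 1.28-fold to 1.56-fold for AKR1C3. Of all genes, 18.3% had an interaction above 0 in all 3 numbers.

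The rule used the interaction, so the share of genes called in it is given only as background: edgeR called 0.21% of genes above 0 and 0.0699% below. By size, AKR1C1 had the 9th highest and NNMT the 24th highest interaction of 8579 genes. Both belong to a wider group with large single-agent falls. For 70 genes the sum of both single-agent log2 changes was -3 or lower, and 69 of these had an interaction above 0, with a median of 0.74. AKR1C1, with a sum of -3.76, had the 9th highest interaction among the 70, and NNMT, with a sum of -4.71, the 17th. The sum and the interaction come from the same libraries and are not independent of each other. Over all genes the median interaction was -0.0056. A stricter count, not to be set beside the 69 of 70, asks for an interaction above 0 in each of the 3 numbers, and 18.3% of all genes met it.

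**Figure D3:**
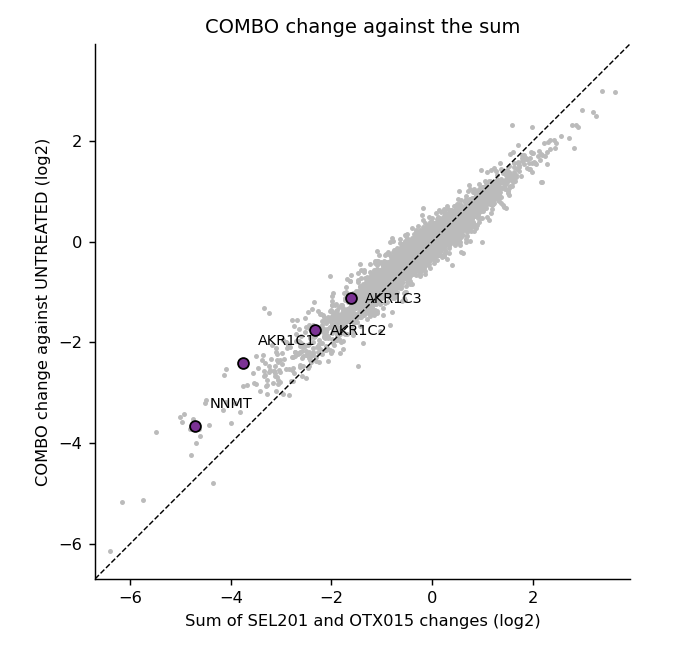
Log2 change of COMBO against UNTREATED (y axis) over the sum of the OTX015 and SEL201 log2 changes (x axis) for 8579 genes in grey, with the dashed line where both are equal. AKR1C1 (sum -3.76, COMBO -2.41) and NNMT (sum -4.71, COMBO -3.66) lie above the line, as do 69 of the 70 genes with a sum of -3 or lower.

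AKR1C1 has close paralogs on chromosome 10, and their sequences bear on what its counts can tell. AKR1C2, which encodes a reductase of dihydrotestosterone and other ketosteroids, shares 98% of coding bases with AKR1C1, and AKR1C3, which makes testosterone and reduces prostaglandins, shares 91.5%. Of all 150-base windows in the principal GENCODE v29 transcript, 11.3% for AKR1C1, 21.2% for AKR1C2 and 1.33% for AKR1C3 occur letter for letter in a transcript of another AKR1C gene. For NNMT, on chromosome 11, 0 of 1718 windows do. How reads that fit several genes were counted is not given in the sources used here, so counts of AKR1C1 and AKR1C2 could be split between these genes. The promoters are alike as well, and are shown since the 3 genes were measured to move together. RefSeq (GRCh38.p14) gives 250 bases before the start of AKR1C1 (chr10:4963165-4963414, plus strand), AKR1C2 (chr10:5003858-5004107, minus strand) and AKR1C3 (chr10:5094164-5094413, plus strand, 1 of its 2 listed starts). NNMT was not among them. Capitals mark the CCAAT box, here on the opposite strand as ATTGG.

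AKR1C1: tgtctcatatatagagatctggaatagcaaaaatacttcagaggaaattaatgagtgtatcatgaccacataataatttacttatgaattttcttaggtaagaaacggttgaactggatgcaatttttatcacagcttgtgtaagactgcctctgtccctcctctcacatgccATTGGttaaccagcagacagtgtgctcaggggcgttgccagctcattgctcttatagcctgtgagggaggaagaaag
AKR1C2: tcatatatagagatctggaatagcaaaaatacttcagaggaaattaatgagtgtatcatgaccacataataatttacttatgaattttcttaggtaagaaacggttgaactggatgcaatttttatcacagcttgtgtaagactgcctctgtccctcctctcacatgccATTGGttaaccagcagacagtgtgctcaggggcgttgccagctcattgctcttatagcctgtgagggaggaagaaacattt
AKR1C3: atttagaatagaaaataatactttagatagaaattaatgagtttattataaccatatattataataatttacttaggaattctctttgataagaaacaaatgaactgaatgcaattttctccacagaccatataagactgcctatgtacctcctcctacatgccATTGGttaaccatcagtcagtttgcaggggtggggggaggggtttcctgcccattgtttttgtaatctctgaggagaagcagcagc

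Over the aligned bases, the AKR1C1 window was 96.5% identical to that of AKR1C2 and 69.2% identical to that of AKR1C3. Each holds 1 CCAAT box, 77 bases before the start in AKR1C1, 81 in AKR1C2 and 86 in AKR1C3. Searched on both strands, CCAAT occurs in 32% of 35116 RefSeq windows of this length, TGACNNNGC, the core of the antioxidant response element that NRF2 binds, in 10.9%, and TGANTCA, the AP-1 element, in 6.57%. Neither TGACNNNGC nor TGANTCA is in the 3 windows shown. Sequence further from the start was not searched, so sites there are not covered. TATAA, which is in 18.9% of windows, occurs in all 3 of them, with 1 match in AKR1C1, 1 in AKR1C2 and 5 in AKR1C3. In AKR1C1 and AKR1C2 the match is on the opposite strand, as TTATA. The matches were not compared in position, so they are not given as an element that the windows share.

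AKR1C2 and AKR1C3 fell with each agent and with both, by less than the values of AKR1C1. AKR1C2 was at 21.2, 21.2 and 14.2 CPM in COMBO libraries 1, 2 and 3, at 26.2, 25.5 and 25.2 in OTX015, at 34.3, 33.8 and 27.2 in SEL201 and at 69.4, 67.7 and 54.7 in UNTREATED. AKR1C3 was at 43.6, 44.6 and 48.0 CPM in COMBO, at 54.6, 59.3 and 59.1 in OTX015, at 51.3, 55.9 and 54.7 in SEL201 and at 92.7, 95.3 and 105 in UNTREATED. For AKR1C2 the groups keep the order of NNMT without overlap, and for AKR1C3 the OTX015 and SEL201 ranges overlap as they do for AKR1C1.

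AKR1C2 fell 3.36-fold in COMBO against UNTREATED (log2 change -1.75, SE 0.14, edgeR adjusted p = 1.5e-07), 2.50-fold in OTX015 (-1.32, adjusted p = 3.7e-06) and 2.01-fold in SEL201 (-1.01, adjusted p = 0.00018). AKR1C3 fell 2.15-fold in COMBO (-1.11, SE 0.07, edgeR adjusted p = 1.4e-08), 1.69-fold in OTX015 (-0.76, adjusted p = 1.1e-06) and 1.81-fold in SEL201 (-0.86, adjusted p = 3.2e-06). In COMBO against OTX015, AKR1C3 fell by 0.35 (edgeR adjusted p = 0.011), and AKR1C2 had a log2 change of -0.43 (adjusted p = 0.097, or 0.00048 with library number as a replicate block and 0.039 with DESeq2). With that block, 12.2% of all genes were called lower in COMBO against OTX015 and 10% higher. In COMBO against SEL201, AKR1C2 fell by 0.74 (edgeR adjusted p = 0.00098) and AKR1C3 by 0.25 (adjusted p = 0.013, or 0.052 without COMBO replicate 1). The interaction of AKR1C2 was 0.58 (SE 0.20, edgeR adjusted p = 0.34). Its adjusted p was 0.0026 when the replicate block was used and 0.013 when the 4 number 3 libraries were left out. That of AKR1C3 was 0.51 (SE 0.10, edgeR adjusted p = 0.056), with an adjusted p of 0.00012 with the replicate block and 0.00051 with DESeq2. With the replicate block, 4.02% of all genes had an interaction called above 0. Since AKR1C2 shares sequence with AKR1C1, its values are not separate evidence for AKR1C1. AKR1C3 is among the genes most like AKR1C1 over the same libraries, so its interaction is not independent either. The fourth measured family member, AKR1A1, an aldehyde reductase gene, went the other way and rose by 0.28 in COMBO against UNTREATED (edgeR adjusted p = 5.7e-05).

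**Figure D4:**
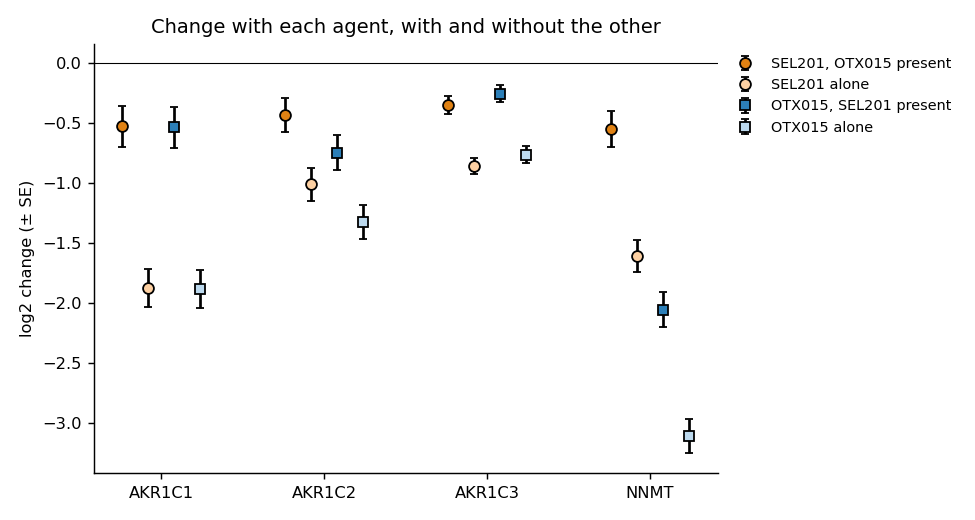
Log2 change (± SE, from the edgeR fit) with SEL201 (circles) and OTX015 (squares), in dark symbols when the other agent was present and in pale symbols when it was not. In all 4 genes the change in the presence of the other agent is the smaller one, such as -0.53 against -1.88 for SEL201 on AKR1C1 and -2.05 against -3.11 for OTX015 on NNMT. For AKR1C1 and NNMT this restates the interaction that they were chosen for. For AKR1C2 and AKR1C3 the edgeR fit without the replicate block did not call the difference.

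Genes of the pathways around both enzymes come next, from 11 lists that hold 109 measured genes beside AKR1C1 and NNMT. Of 38 listed NRF2 target genes 12 were measured, and most of these fell. The 12 include both TRIM16 and TRIM16L, and whether they share reads was not tested. In COMBO against UNTREATED 9 of 12 measured members were lower and 0 higher (median log2 change -0.65, against 0.00195 over all genes), and without AKR1C2 and AKR1C3, 7 of 10 were lower (median -0.60), beside 29.6% of all genes. With the replicate block 10 were lower and 2 higher, beside 34.2% and 33.5% of all genes. In OTX015 8 of 12 were lower, beside 24.7% of all genes, and in SEL201 4 of 12, beside 11.1%. When the block was used, 8 were lower and 1 higher in SEL201, beside 19.1% and 18% of all genes. ABCC2, a conjugate export pump gene, fell by 1.37 in COMBO (SE 0.08, edgeR adjusted p = 3.5e-09), PANX2, a pannexin channel gene, by 1.57 (adjusted p = 1.3e-06), TRIM16 by 0.64 (adjusted p = 1.4e-06) and the carbonyl reductase gene CBR3 by 0.41 (adjusted p = 0.00036). HMOX1, the haem oxygenase gene and a textbook NRF2 target, stood at -0.21 (edgeR adjusted p = 0.17). Its adjusted p was 4.1e-05 when the block was used and 0.019 when the 4 number 3 libraries were left out. SRXN1, which encodes sulfiredoxin, stood at 0.11 (edgeR adjusted p = 0.24, or 0.047 when the block was used). NQO1, GCLM, TXNRD1, NFE2L2 (the NRF2 gene) and KEAP1 were not analysed here.

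Of the measured partners and regulators of NRF2, 3 of 4 were lower and 1 higher in COMBO against UNTREATED, beside 29.6% and 28.3% of all genes. The small MAF genes MAFF and MAFK fell by 0.58 (edgeR adjusted p = 1.1e-05) and 0.42 (adjusted p = 9e-05), and BACH1, which encodes a repressor at NRF2 sites, fell by 0.18 (adjusted p = 0.0003). RBX1, a subunit gene of the ubiquitin ligase that degrades NRF2, rose by 0.19 (edgeR adjusted p = 0.018), but its adjusted p was 0.054 without UNTREATED replicate 3, 0.08 without COMBO replicate 1 and 0.054 without COMBO replicate 2. Steroid and carbonyl metabolism genes were 4 higher and 3 lower of 18 (6 lower with the replicate block), both under the shares of all genes, 28.3% higher and 29.6% lower. HSD17B3, a testosterone-forming dehydrogenase gene, fell by 1.81 (SE 0.24, edgeR adjusted p = 1.8e-05), while the steroid reductase genes SRD5A1 and SRD5A3 rose by 0.37 (adjusted p = 8e-07) and 0.34 (adjusted p = 5.3e-05). Glutathione and aldehyde detoxification genes were 7 higher and 7 lower of 18, beside 28.3% and 29.6% of all genes. ALDH3B1, an aldehyde dehydrogenase gene, fell by 1.28 (edgeR adjusted p = 8.3e-08) and MGST2, a microsomal glutathione transferase gene, by 1.09 (adjusted p = 2.5e-08), while ALDH4A1, an enzyme gene of proline breakdown, rose by 0.70 (adjusted p = 3.5e-07).

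On the side of NNMT, NAD and nicotinamide metabolism gave 5 higher and 4 lower of 13 in COMBO against UNTREATED, beside 28.3% of all genes higher and 29.6% lower. NMNAT2, which encodes a cytoplasmic enzyme of the last step of NAD synthesis, fell to 52.2 ± 7.32 CPM in COMBO, 62.2 ± 6.26 in OTX015 and 109 ± 12.7 in SEL201, against 205 ± 27.5 CPM in UNTREATED (SD, n = 3 each), and its ranges of COMBO and OTX015 overlap. The log2 change of NMNAT2 was -1.98 in COMBO (SE 0.12, edgeR adjusted p = 8.7e-09), -1.72 in OTX015 (adjusted p = 7.6e-08) and -0.92 in SEL201 (adjusted p = 9.3e-05), and its interaction was 0.66 (adjusted p = 0.14, or 4.6e-07 with the replicate block). ENPP1, a nucleotide pyrophosphatase gene, rose by 0.82 (edgeR adjusted p = 4.3e-08), NMRK1, the nicotinamide riboside kinase gene, by 0.58 (adjusted p = 0.0004) and NADSYN1, the NAD synthetase gene, by 0.40 (adjusted p = 7.9e-06). NMNAT1, the nuclear counterpart of NMNAT2, stood at -0.07 (edgeR adjusted p = 0.49), and the nicotinic acid salvage gene NAPRT one of -0.00407 (adjusted p = 0.96). NAMPT, AOX1 and QPRT were not analysed here.

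Sirtuins, PARPs and related enzymes, of which PARG and MACROD1 do not consume NAD, were 5 higher and 9 lower of 19 in COMBO against UNTREATED. Of all genes 28.3% were higher, which is close to the count of higher members, and 29.6% lower. PARP3, PARP8 and PARP9, ADP-ribosyltransferase genes, fell by 0.58 (edgeR adjusted p = 7.1e-07), 0.58 (adjusted p = 1.5e-05) and 0.54 (adjusted p = 3.8e-06), while SARM1, an NAD hydrolase gene, rose by 0.44 (adjusted p = 2.8e-06) and SIRT7, a nuclear sirtuin gene, by 0.38 (adjusted p = 0.0001). Of the methionine cycle and polyamine genes 2 of 7 were higher and 2 lower, about the shares of all genes. SAT1, which encodes the acetyltransferase that starts polyamine breakdown, rose to 386 ± 9.60 CPM in COMBO, 254 ± 8.43 in OTX015 and 202 ± 5.68 in SEL201, against 145 ± 4.80 CPM in UNTREATED (SD, n = 3 each). Its log2 change in COMBO was 1.41 (SE 0.04, edgeR adjusted p = 1.8e-11) and its interaction 0.13 (adjusted p = 0.54). CBS, a gene of the step that takes homocysteine out of the cycle, fell by 0.84 (edgeR adjusted p = 0.00029). Folate genes, at 2 higher and 2 lower of 6, were near these shares too. MAT2A, MAT2B, AHCY and MTAP were not analysed here.

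Among the other methyltransferases of small molecules, 6 of 9 were lower and 3 higher in COMBO against UNTREATED (median log2 change -0.30), beside 29.6% of all genes lower and 28.3% higher, so that the higher count is near the background. METTL7A fell by 1.02 (edgeR adjusted p = 0.00065). HNMT, the histamine methyltransferase gene, fell to 0.499 of its UNTREATED level (edgeR adjusted p = 4.6e-05). ASMTL and TPMT, the thiopurine methyltransferase gene, rose by 0.73 (edgeR adjusted p = 8.6e-06) and 0.53 (adjusted p = 8.4e-08). NNMT lies below all of these, at -3.66. Of genes reported to regulate NNMT in other systems 3 were measured, of which FOXA1 fell by 0.68 (edgeR adjusted p = 0.001) and the interleukin-6 receptor gene IL6R by 0.29 (adjusted p = 0.011). Beside these, 29.6% of all genes were called lower. STAT3 was not analysed here. In the interaction, edgeR called 0 of the 109 listed genes. At an unadjusted p under 0.05 there were 11 of them (10.1%, beside 9.17% of all genes). With the replicate block edgeR called 11, AKR1C2 and AKR1C3 among them, beside 4.02% of all genes above 0 and 2.73% below. The DESeq2 calls are given in the closing section.

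**Figure D5:**
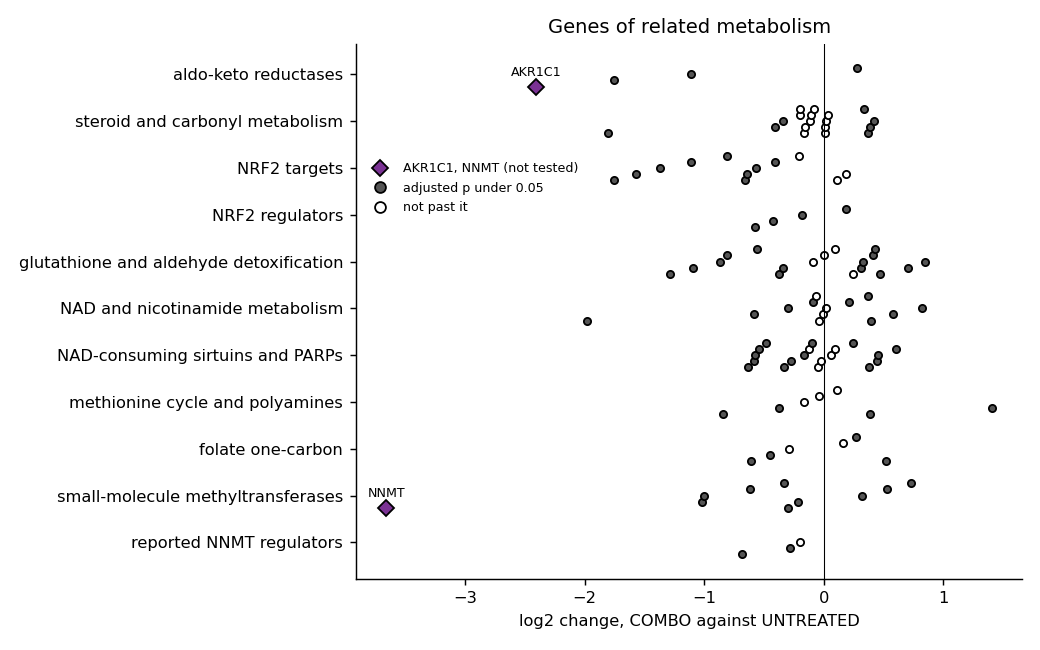
Log2 change in COMBO against UNTREATED (x axis) for each measured gene of the 11 lists (rows), filled where the edgeR adjusted p was under 0.05, with AKR1C1 and NNMT as diamonds. NRF2 targets lie mostly left of 0 (9 of 12 lower), most other lists lie on both sides, and NNMT (-3.66) is far left of the other small-molecule methyltransferases.

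The genes most like each enzyme in pattern were taken as those with the highest Pearson correlation of log2 CPM over the 12 libraries, as a description, since the libraries fall into the 4 groups. For AKR1C1 these were FSTL3, AKR1C3, PLEKHA7, SPP1 and PRKAG2 (r from 0.966 to 0.973). FSTL3, a follistatin-like gene of a secreted activin binder, was at 131 ± 2.24 CPM in COMBO, 165 ± 11.4 in OTX015, 157 ± 8.29 in SEL201 and 281 ± 11.04 in UNTREATED (SD, n = 3 each), and so has the near-equal single-agent levels of AKR1C1 at a smaller range. SPP1, the osteopontin gene, had an interaction of 1.13 (SE 0.17). For NNMT they were PI15, FST, CLEC2B, STEAP3 and TMEM173 (r from 0.989 to 0.995). FST, the follistatin gene, was at 17.0 ± 2.95 CPM in COMBO, 25.6 ± 1.34 in OTX015, 70.2 ± 9.55 in SEL201 and 224 ± 32.0 in UNTREATED (SD, n = 3 each), which is close to the NNMT ladder in fold as well as in order. TMEM173, which encodes the DNA-sensing adaptor STING, had a log2 change of -2.27 in COMBO, -1.73 in OTX015 and -0.84 in SEL201.

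NNMT is also expressed by fibroblasts. Of 10 fibroblast markers 5 were measured and none was at 0, and 4 were lower and 1 higher in COMBO against UNTREATED, beside 29.6% and 28.3% of all genes. Their summed level was 86.4 to 93.3 CPM in COMBO, 98.9 to 105 in OTX015, 118 to 136 in SEL201 and 138 to 184 in UNTREATED. LUM, the lumican gene, fell by 2.55 (edgeR adjusted p = 4.3e-09) and DCN, the decorin gene, by 2.41 (adjusted p = 2.9e-07), while the receptor gene PDGFRA rose by 0.49 (adjusted p = 0.0086). These 3 are named after their values were seen. Of 10 keratinocyte and epithelial markers KRT14 and KRT8 were measured, with sums of 135 to 138 CPM in COMBO, 159 to 176 in OTX015, 198 to 213 in SEL201 and 348 to 380 in UNTREATED. Of 7 immune markers LYZ, the lysozyme gene, was measured, at 19.5 to 22.6 CPM in COMBO, 21.3 to 24.3 in OTX015, 29.3 to 32.4 in SEL201 and 39.2 to 50.2 in UNTREATED, in the group order of NNMT but with COMBO and OTX015 overlapping. LYZ fell by 1.13 in COMBO against UNTREATED (edgeR adjusted p = 4.1e-07). Of 5 endothelial markers KDR was measured, at 101 to 157 CPM in COMBO, 70.6 to 121 in OTX015, 66.1 to 109 in SEL201 and 81.0 to 142 in UNTREATED, and the ranges of all 4 groups overlap. The edgeR fit without the replicate block called KDR in no contrast. With the block KDR was called higher in COMBO against UNTREATED, OTX015 and SEL201, and lower in SEL201 against UNTREATED, and its interaction was called above 0. The part of these sets in the values of AKR1C1 and NNMT was not tested.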

How the data were processed

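RNA-seq of 12 A375 libraries (4 groups of 3) was analysed from raw counts per gene, deposited by the authors without normalization. Per the submitters' processing notes the tools were FastQC, Trimmomatic, STAR 2.5.4b, SAMtools 1.9, featureCounts and DESeq2, with build hg19. Which step each tool did, the annotation and the strand setting are not given in these sources. The deposited table holds genes with mean counts from 78.7 to 9159, and genes outside it were not analysed here, so CPM is relative to these genes.

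The test on the counts was the quasi-likelihood test of edgeR 4.0.16, run in R 4.3.3 (normalization by TMM, filterByExpr, which kept all 8579 genes, glmQLFit and glmQLFTest over all libraries, group means only, Benjamini-Hochberg over 8579 genes, threshold 0.05) in 6 contrasts. SE is the log2 change over the square root of F. The steps were tested on simulated counts. AKR1C1, NNMT and the gene lists were chosen with earlier results of these data known, so neither adds independent support.

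Named genes are AKR1C1 and NNMT, a fixed set of related genes where measured, up to 5 called members per list with the lowest p in COMBO against UNTREATED and in the interaction, and the 5 genes most like each enzyme. Not all of these are described. Nothing in the labels ties a replicate to its own culture, and p-values therefore cover only the variation among libraries, which may be technical. Replicate pairs differed beyond sampling noise, with a chi-square of 6.34 or more per degree of freedom. Deviations from group means correlated at 0.263 to 0.574 in all 18 same-numbered pairs and at -0.462 to 0.194 in the other 36, so the numbers were taken to pair libraries, a reading of the counts that no label states. The replicate block (library number as a term) is given for some values and list counts, and not for every one that it changes. Transcript windows and coding identity are from GENCODE v29, promoters from RefSeq (GRCh38.p14), aligned with Biopython 1.88. As alternatives, DESeq2 1.42.0, RLE scaling, the block, a filter of 5 CPM in 3 libraries or none, only the compared groups, each library left out, the 4 number 3 libraries left out, and additivity on the linear scale were run.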

Additional observations from a re-analysis of the deposited data

Results flagged for a closer look

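The change with SEL201 differed with and without OTX015 in 5 named genes, as the change with OTX015 present minus the change without it on the log2 scale. For AKR1C1 the difference was 1.35 and for NNMT 1.06, given with no test since both were chosen for it. The edgeR interaction test called the other 3, beside 0.21% of all genes above 0 and 0.0699% below. For FST it was 1.10, for SPP1 1.13 and for FSTL3 0.50, and these were picked for their likeness to AKR1C1 or NNMT over the same libraries, so they are no independent cases. The difference was not past the threshold in 9 of the fits without 1 library for FST, in 6 for FSTL3 and in 1, without UNTREATED replicate 2, for SPP1.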

How the results depend on the processing

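The log2 changes of AKR1C1 and NNMT kept their direction in all 6 contrasts under every alternative run. Without 1 library, the interaction ran from 1.21 to 1.49 for AKR1C1 and from 0.94 to 1.21 for NNMT, and the change of AKR1C1 in SEL201 against UNTREATED from -1.97 to -1.74. Additivity is a matter of scale: on the linear CPM scale the expected COMBO level would be -12.1 CPM for AKR1C1 and -103 for NNMT, which no level can reach, and the observed level exceeded it by 17.0 and 118 CPM, against 3.02 and 7.47 CPM with the log2 expectation. Counts of called genes depended on the fit. With the replicate block they were 1541 higher and 1639 lower for SEL201 against UNTREATED (867 and 953 without it), 861 and 1047 for COMBO against OTX015 (without it 249 and 344), and 345 and 234 for the interaction (18 and 6). The interaction gave 87 and 32 with DESeq2 and 57 and 15 without the 4 number 3 libraries, and COMBO against OTX015 gave 223 lower genes with only the compared groups. Of the 109 listed genes, DESeq2 called 3 in the interaction, AKR1C3 among them, beside these 87 and 32 over all genes. Without 1 library, the interaction had 4 to 18 higher and 0 to 5 lower genes, and COMBO against OTX015 had 106 to 276 and 198 to 371. Of 132 list counts, 65 moved by over 1.5 times in at least 1 alternative, and 16 of 77 recomputed values of named genes changed call or direction. NAPRT, at -0.00407 in COMBO against UNTREATED, ran from -0.029 to 0.0296 without 1 library, positive without UNTREATED replicate 1, COMBO replicate 1 or COMBO replicate 3, and was 0.00349 without the 4 number 3 libraries and 0.000739 with only the compared groups. Among the recomputed values of named genes, the replicate block changed the calls given beside the results and brought the interactions of PLEKHA7, PRKAG2, PI15 and TMEM173 past the threshold, and it changed no other call. These genes were picked for their likeness to AKR1C1 or NNMT over the same libraries, so they are no independent cases. With the block, 4.02% of all genes had an interaction called above 0. The cause of the shifts between fits was not tested. The level of AKR1C1 in COMBO rests on 74 to 123 counts per library, which limits its precision.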
